A study of Mus musculus with 16 samples.

Results

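The genes described here encode the nuclear subunits of the mitochondrial respiratory chain, measured by RNA sequencing in 16 primary mouse rhabdoid tumors (RTs). They were chosen by symbol (Nduf, Sdh, Uqcr, Cox and Atp5 names) and by a mean count of at least 50 over the 16 tumors, which left 83 of the 89 matching symbols among 24982 genes in the count table. By complex they were 35 genes of complex I, 4 of complex II, 8 of complex III, 15 of complex IV and 17 of complex V, and the Sdh symbols also caught 4 assembly factors of complex II (Sdhaf1, Sdhaf2, Sdhaf3 and Sdhaf4), which are not subunits and were kept apart. Ndufa4 and its paralog Ndufa4l2 were counted with complex IV, where the protein of the first is known to sit. Atp5s, now named Dmac2l, is not a standard subunit of the ATP synthase and was left in complex V by its symbol.

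All tumors arose in Smarcb1flox/flox;R26-CreERT2 mice of mixed 129/SV and C57BL/6 background, in which tamoxifen given to the pregnant mother activated a Cre expressed from the ubiquitous Rosa26 locus, so that Smarcb1 could be lost in any tissue. Each tumor came from a different mouse and is named here by that mouse. The intra-CNS tumors (n = 5, the Shh subgroup of the study, all induced at E6, ages 30 to 180 days) were compared with 11 tumors of the Myc subgroup, of which 6 were intracranial but outside the CNS (52 to 170 days) and 5 were extracranial (80 to 210 days). Among the Myc tumors, induction was on E8 in 8, on E6 in 2 and on E7 in 1. Subgroup and intra-CNS location cannot be told apart in these samples, and induction day is nearly confounded with them.

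Complexes I to IV pass electrons from NADH and succinate to oxygen, and complexes I, III and IV pump protons across the inner mitochondrial membrane. Complex V, the ATP synthase, lets the protons return and makes ATP. Most subunits are made from nuclear genes, several of which have tissue-restricted isoforms in muscle, testis or hypoxic cells, and the known regulators of the set include NRF1, GABPA, YY1, the ERR receptors and the PGC-1 coactivators. The subunits made from mitochondrial DNA were not analysed here.

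Libraries held 17889968 to 110177889 counts in genes, with a median of 30905046. Smarcb1, the deleted gene, ranged from 3.99 to 58.1 TPM (a level that is scaled for gene length and library size), and was highest in 29048 (58.1 TPM, Shh) and R26P115 (43.7 TPM, Myc). Tumor 29048 also stood apart in the summed level of 7 oligodendrocyte markers (6725 TPM against 42.7 to 175 TPM in the other tumors) and of 10 neuronal markers (4981 TPM against 42.9 to 2490 TPM). R26P115, an intracranial tumor of the Myc subgroup, had the lowest Myc level of all 16 tumors (8.73 TPM), below the Shh tumors (9.31 to 28.8 TPM). Results that rest on these tumors are given with their values beside them. The Shh markers Sox2, Dll1, Dll3, Gli2 and Sox1 summed to 286 to 1215 TPM in the Shh tumors and to 0.871 to 34.6 TPM in the Myc tumors. Macrophage and leukocyte markers (8 genes) summed to 332 to 523 TPM in the Shh tumors and to 413 to 4064 TPM in the Myc tumors.

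The promoters of a pair of genes that were lower in the Shh tumors under most or all settings (Atp5d and Sdhaf2) and of one whose change was the largest in complex V (Atp5l) are shown first, since they carry the motifs searched below to different degrees. Each window holds 250 bases before and 50 bases after the transcription start in RefSeq (GRCm38.p6), printed on the strand of the gene, and capitals mark motif matches.
Atp5l (chr9:44920693-44920992, minus strand): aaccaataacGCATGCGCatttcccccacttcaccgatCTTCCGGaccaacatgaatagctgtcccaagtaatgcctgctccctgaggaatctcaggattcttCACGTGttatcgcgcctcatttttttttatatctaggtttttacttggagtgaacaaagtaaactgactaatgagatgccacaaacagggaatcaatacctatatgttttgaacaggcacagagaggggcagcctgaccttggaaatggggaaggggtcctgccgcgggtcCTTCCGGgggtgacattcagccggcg
Sdhaf2 (chr19:10525160-10525459, minus strand): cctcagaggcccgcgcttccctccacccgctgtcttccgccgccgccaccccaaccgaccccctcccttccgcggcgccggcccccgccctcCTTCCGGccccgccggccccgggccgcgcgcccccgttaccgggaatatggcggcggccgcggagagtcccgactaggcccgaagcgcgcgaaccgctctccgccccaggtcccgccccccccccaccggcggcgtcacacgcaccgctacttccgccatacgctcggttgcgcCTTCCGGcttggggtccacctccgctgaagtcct
Atp5d (chr10:80142025-80142324, plus strand): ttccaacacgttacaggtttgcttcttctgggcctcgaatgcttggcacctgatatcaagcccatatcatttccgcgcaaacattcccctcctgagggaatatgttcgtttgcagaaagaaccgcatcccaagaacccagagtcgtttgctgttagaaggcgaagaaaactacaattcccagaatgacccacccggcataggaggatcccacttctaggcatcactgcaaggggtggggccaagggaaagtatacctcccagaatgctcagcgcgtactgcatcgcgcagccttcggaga

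The Atp5l window held 1 NRF1 match, 2 ETS matches and 1 E-box, the Sdhaf2 window held 2 ETS matches, and the Atp5d window held none of the 6 motifs. None was found either in a second window of Atp5d (chr10:80142065-80142364) or in those of Cox6b2, Cox7a1 and Uqcr10, which are not printed. Promoters were found for 70 of the 83 genes (68 by symbol and 2 by an older symbol). The letters of an ETS site (CCGGAAG, the family of GABPA; both strands) were present in 19 of these 70 (27.1%) against 9.93% of 27025 genes with a promoter window of that length. GCGCATGC, the core of the NRF1 site, was present in 10 (14.3%) against 3.05%, in genes such as Sdhb, Uqcrc1, Cox6a1 and Atp5g2. AAGATGGC, the YY1 letters, was present in 10 (14.3%) against 3.19%, including Ndufa3, Ndufs4 and Atp5j. The E-box CACGTG, which MYC and MAX can bind, was present in 6 (8.57%) against 8.09%, in Atp5f1, Atp5g1, Atp5g3, Atp5l, Ndufa7 and Ndufv1. TGACGTCA, the CREB letters, was present in 4 (5.71%) against 2.03%, and TCAAGGTCA, the ERR letters, in 2 (2.86%) against 0.466%. A match of letters is a description of the window and not evidence of binding, and the E-box and CREB letters read the same on both strands. The 27025 genes were not matched to the 70 for expression or base composition, and a gene counted if any of its windows held the letters. Whether the shares differ from those of other widely expressed genes was not tested.

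In level, the ATP synthase and cytochrome c oxidase genes stood highest. The most abundant of the 83 was Atp5b, the catalytic beta subunit of complex V, with a mean of 1146 TPM over the 16 tumors. Next came Cox4i1, a core regulatory subunit of complex IV, at 924 TPM and Uqcrh, the hinge protein of complex III, at 766 TPM. The highest gene of complex I was Ndufa3 (391 TPM) and that of complex II was Sdha, its flavoprotein (241 TPM). The median gene of each complex lay at 152 TPM in complex I, 217 in complex II, 280.2 in complex III, 426 in complex IV and 417 in complex V, whereas the 4 Sdhaf genes lay between 21.5 and 52.8 TPM. Together the 83 genes made up 1.58% to 3.42% of all TPM in a tumor, with a median of 2.13%. The genes just above the count limit were Cox7a1 (mean count 72.1) and Ndufa4l2 (124), and those just below it were Cox6a2 (40.6), Cox4i2 (25.1), Cox8b (21.8), Cox8c (10.6), Ndufb4c (10.1) and Cox7b2 (1.0).

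The first comparison asked whether the subunits differed between the Shh and Myc tumors. In edgeR's quasi-likelihood test with TMM scaling, none of the 83 genes was higher in the Shh tumors and 10 (12.0%) were lower at an adjusted p under 0.05, beside 18.5% of all 14807 genes that met the same count limit (mean of 50) called higher and 21.9% called lower. The share of the respiratory chain genes called lower was thus below the background share. The median log2 fold change (Shh minus Myc) of the 83 genes was -0.28, beside -0.11 over those 14807 genes, and 62 of the 83 lay within 0.5 of 0. Cox7a1 and Atp5l alone changed by more than 1 on the log2 scale. At an unadjusted p under 0.05 in edgeR there were 18 of the 83 genes. The share of all genes at that unadjusted level is not given here, so this count has no background beside it.

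**Figure D1:**
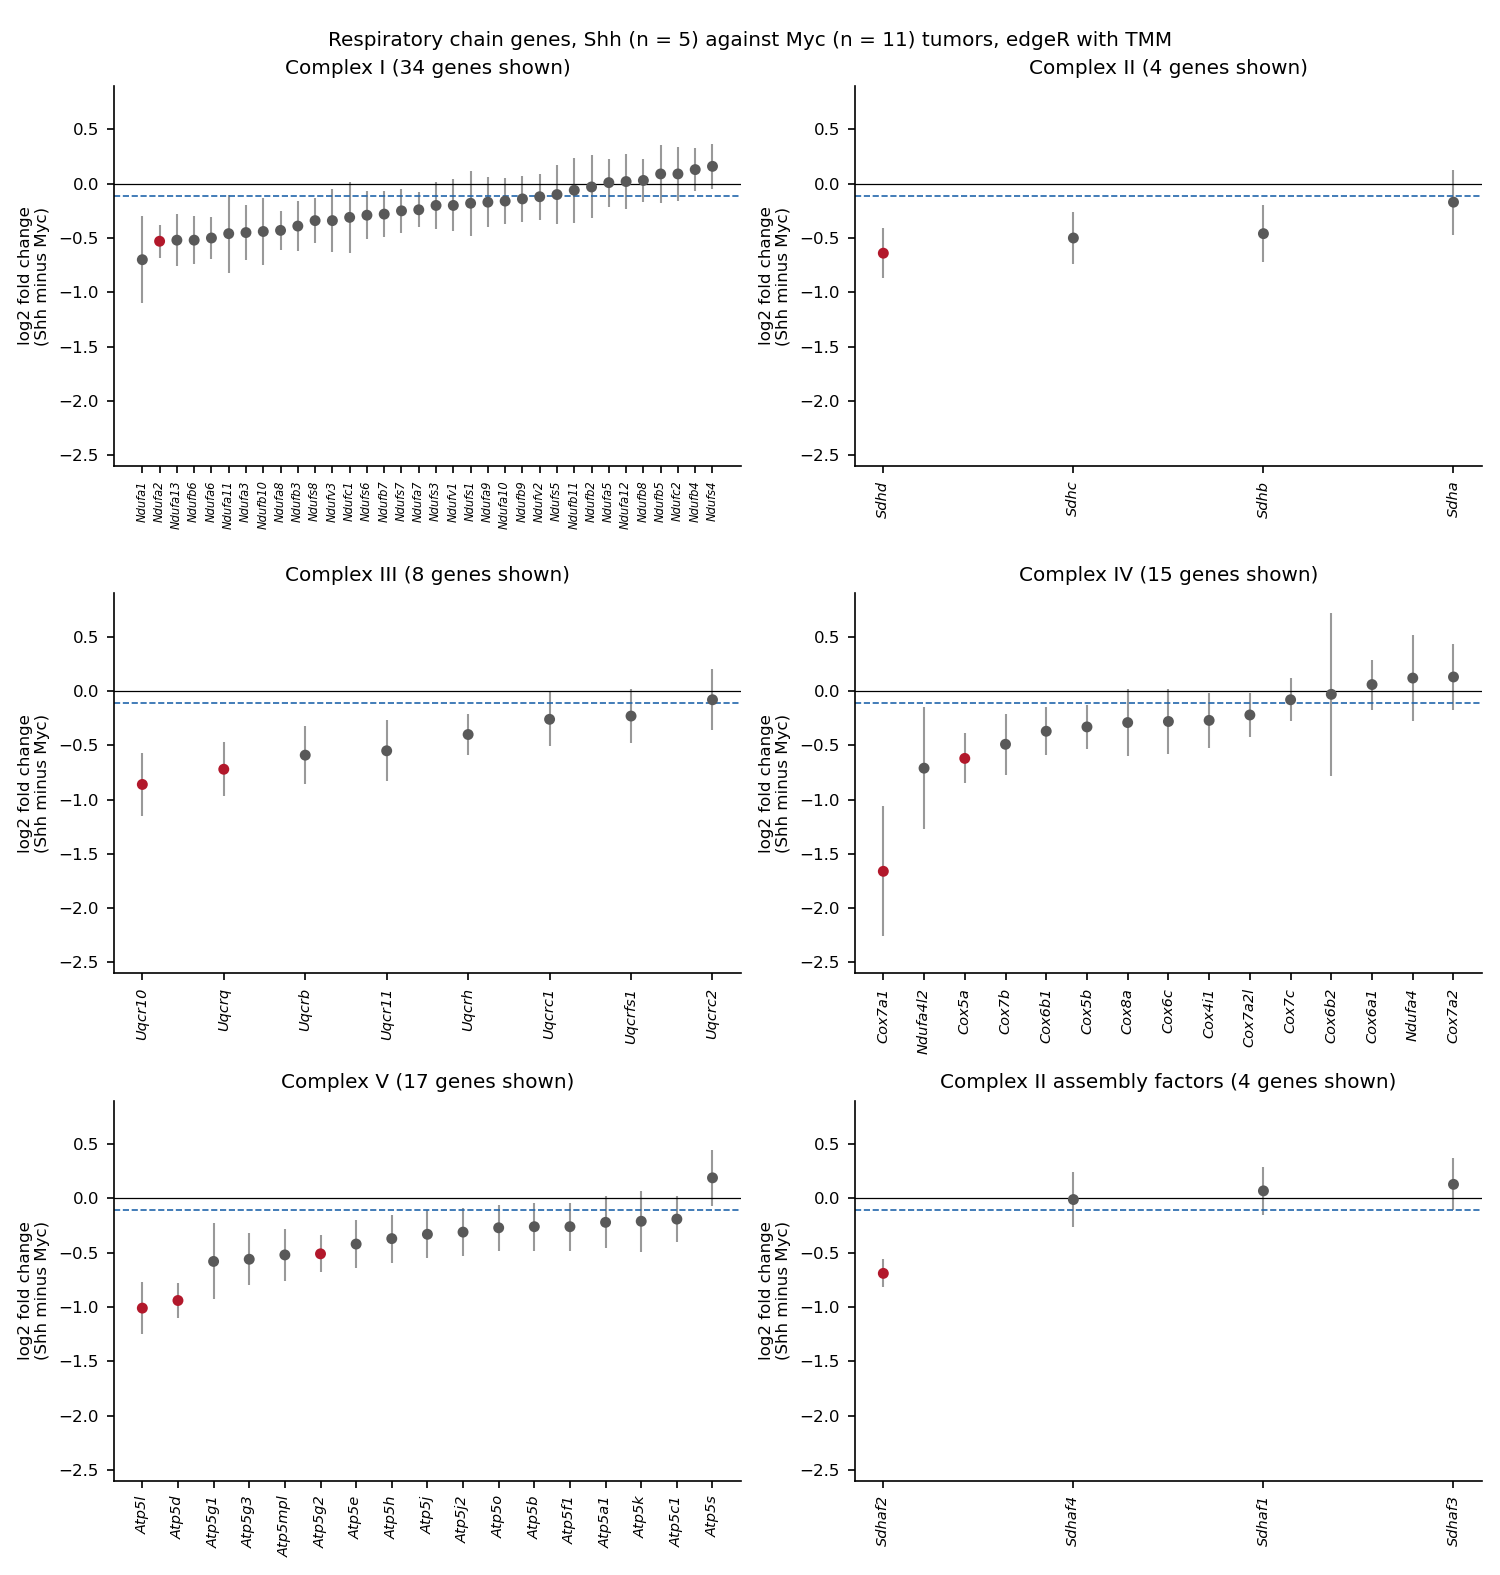
Log2 fold change (Shh minus Myc, edgeR with TMM; vertical axis) of the respiratory chain genes, grouped by complex and leaving out 1 gene of complex I, with bars of 1 SE. Red points mark the 10 genes with an adjusted p under 0.05, all below 0, the solid line is 0 and the dashed line is the median of all genes above the count limit (-0.11).

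Counts by complex were 1 of 35 genes lower in complex I (median log2 fold change -0.24), 1 of 4 in complex II (-0.48), 2 of 8 in complex III (-0.48), 2 of 15 in complex IV (-0.28) and 3 of 17 in complex V (-0.33), with the tenth among the assembly factors. All 8 genes of complex III had a negative fold change, from -0.86 for Uqcr10 to -0.08 for Uqcrc2. With TMM 70 of the 83 genes had a negative sign, but 37 did with total counts and 8 in limma on TPM. The share of all genes with a negative sign is not given here, and their median with TMM was also below 0 (-0.11). With TMM the sign was negative in 28 of 35 genes in complex I, 4 of 4 in complex II, 12 of 15 in complex IV and 16 of 17 in complex V. These counts thus depend on the scaling. The catalytic and core subunits did not pass the test. Their log2 fold changes were -0.18 for Ndufs1 (SE 0.30) and -0.20 for Ndufv1 (SE 0.24), which hold iron-sulfur and NADH-binding parts of complex I. Sdha and Sdhb, the flavoprotein and the iron-sulfur protein of complex II, gave -0.17 (SE 0.30) and -0.46 (SE 0.26). In complex III the core protein Uqcrc1 gave -0.26 (SE 0.25) and the Rieske protein Uqcrfs1 gave -0.23 (SE 0.25). In complex V the alpha and beta subunits Atp5a1 and Atp5b gave -0.22 (SE 0.24) and -0.26 (SE 0.22).

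The direction of the whole set was set by how libraries were scaled. TMM factors were 1.11 to 1.18 in the Shh tumors and 0.782 to 1.05 in the Myc tumors, so that total counts place the Shh tumors higher than TMM does. With total counts in place of TMM the median of the 83 genes was 0.04, and 2 genes were called lower (background share not given). In limma on log2(TPM + 1), which changes the unit and the test as well as the scaling, it was 0.28, with 13 genes called higher and 1 lower, beside 40.2% of genes above the count limit called higher and 10.5% called lower. The background moved along, with a median of 0.19 under total counts and 0.47 on TPM. Under all of these scalings the median of the respiratory chain genes lay 0.15 to 0.23 below that of all genes above the count limit. Rescaling a library shifts all its genes about alike, so this difference could hardly move between scalings and their agreement is no test of it. In subsets of the tumors this difference ran from -0.06 (mice with numbered names alone) to -0.30 (Shh against extracranial Myc tumors). It was -0.11 among tumors induced at E6. The 13 genes that were higher on TPM had log2 differences of 0.54 (Ndufa5) to 0.76 (Atp5s) and included Ndufs4, Ndufb4, Cox6a1, Cox7a2, Sdhaf1, Sdhaf3 and Sdhaf4.

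**Figure D2:**
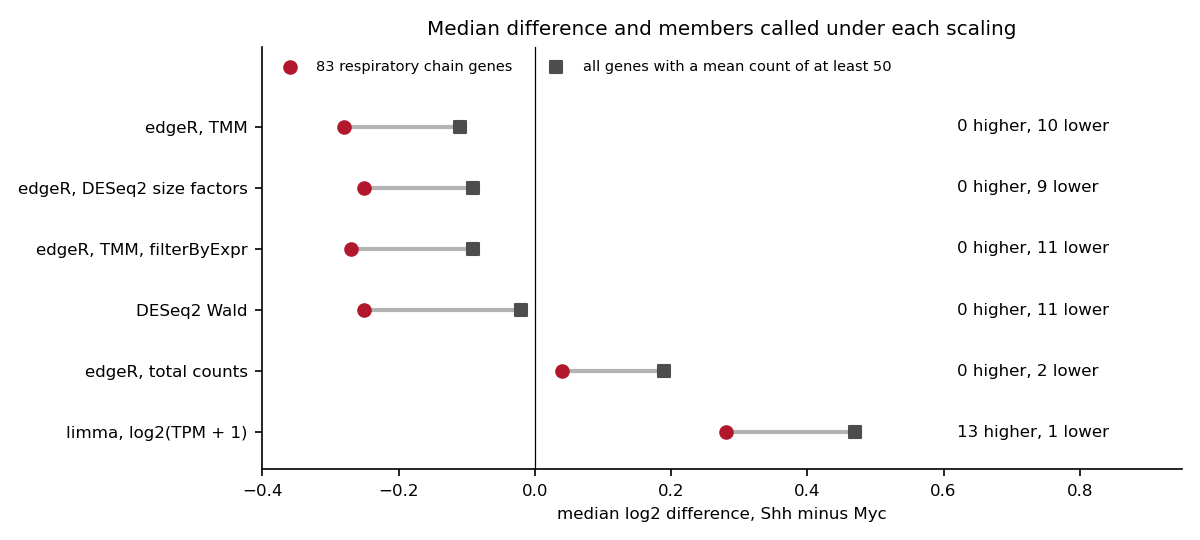
Median log2 difference (Shh minus Myc; horizontal axis) of the 83 respiratory chain genes (circles) and of all genes above the count limit of 50 (squares) under 6 ways of scaling or testing, with the number of the 83 genes called at the right. Both medians move together from below 0 with TMM to above 0 on TPM, and the circle lies left of the square in each row. Rescaling shifts all genes about alike, so the order of circle and square could hardly change between rows.

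Atp5d was called lower in the Shh tumors in all 16 fits that left out 1 tumor and in all 10 other refits, TPM included. It encodes the delta subunit of the central stalk of complex V and lies at chr10:80138632-80145818 (GRCm38, plus strand). The Shh tumors had 130.3 (29048), 107 (38594A), 98.6 (29050A), 110.5 (R26P98) and 86.4 (R26P87) TMM-scaled CPM (counts scaled for library size but not for gene length), and the 11 Myc tumors had 161 to 269 with a median of 217. The groups did not overlap on this scale, as for 15.0% of genes above the count limit, and only Atp5d and Sdhaf2 (2.41%) among the 83 did so. The log2 fold change was -0.94 (SE 0.16, edgeR adjusted p = 0.000419), short of the alternative limit of 1, and ran from -1.03 to -0.40 over the alternatives. In TPM the groups overlapped, with 341 ± 52.2 (SD, n = 5) in Shh and 451 ± 70.3 (n = 11) in Myc tumors.

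Sdhaf2, which is needed to attach FAD to Sdha, was the other gene with separate groups. It had 39.8, 40.6, 33.9, 35.9 and 36.8 TMM-scaled CPM in the same order of Shh tumors, and 46.8 to 81.6 with a median of 58.8 in the Myc tumors. Its log2 fold change was -0.69 (SE 0.13, edgeR adjusted p = 0.00095), and the call was lost with total counts, on TPM and among tumors induced at E6. The other 3 assembly factors of complex II gave -0.01 to 0.13 and were not called. The gene spans chr19:10500534-10526142 (minus strand) and shares 94 of its 7195 exon bases with Cpsf7 on the other strand, as Atp5d shares 68 of 1928 with Cbarp. Larger shares lie in Cox5a (269 of 2101, Gm26631) and Ndufa2 (66 of 572, Tmco6), and Atp5l shares 133 of 6443 with Gm30934. Whether counting used strand is not given in the sources used here, so reads in these stretches could belong to either gene.

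Atp5l, the g subunit of the membrane part of complex V (chr9:44912557-44920742, minus strand), had 80.1, 76, 73.3, 49 and 48.7 TMM-scaled CPM in the Shh tumors 29048, 38594A, 29050A, R26P98 and R26P87. The Myc tumors had 62 to 216 with a median of 143. Only R26P123 (62), of the 11 Myc tumors, fell within the Shh range. The log2 fold change was -1.01 (SE 0.24, edgeR adjusted p = 0.00436). Of 10 alternatives other than leaving out a tumor, the call was lost in limma on TPM and among tumors induced at E6.

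The ATP synthase c subunit, which forms the rotor ring, is made from 3 genes, Atp5g1, Atp5g2 and Atp5g3, whose mature proteins are identical. Of these Atp5g2 was called, with 51.2 to 73.4 TMM-scaled CPM in Shh and 59.9 to 117 in Myc tumors (log2 fold change -0.51, SE 0.17, edgeR adjusted p = 0.0296). Atp5g1 (-0.58, SE 0.35) and Atp5g3 (-0.56, SE 0.24) had changes of the same size and larger SE. In TPM Atp5g3 was the most abundant of the 3, at a mean of 672, followed by Atp5g1 at 315 and Atp5g2 at 298. R26P115 had 797 TPM of Atp5g1, above the 187 to 433 TPM of the other 15 tumors, and 175 TPM of Atp5g2, the lowest of all.

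The called genes of complexes I to IV had less separate groups. Ndufa2, an accessory subunit of complex I, had 38.4 to 44.9 TMM-scaled CPM in Shh and 41.4 to 76.2 in Myc tumors (log2 fold change -0.53, SE 0.15, edgeR adjusted p = 0.0113). It was also the steadiest of the 83 genes in TPM, with a range of 1.57-fold over the 16 tumors, and its TPM means were 217 ± 16.5 (SD, n = 5) and 215 ± 26.2 (n = 11). Uqcr10 and Uqcrq, small subunits of complex III, had log2 fold changes of -0.86 (SE 0.29, adjusted p = 0.0321) and -0.72 (SE 0.25, adjusted p = 0.0365) in edgeR. Uqcr10 had 37.4 to 74.4 TMM-scaled CPM in Shh tumors and 52.1 to 181 in Myc tumors. Sdhd, a membrane anchor of complex II, and Cox5a, a core-associated subunit of complex IV, gave -0.64 (SE 0.23, adjusted p = 0.0386) and -0.62 (SE 0.23, adjusted p = 0.0446) in edgeR. For these last 4 genes the Shh and Myc ranges overlapped, and the highest value of each came from R26P115 or 43998A.

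The calls of lower genes moved with single tumors. Without R26P98 or R26P87 there were 4, and without 38594A or 29050A there were 5. Atp5d, Atp5l, Ndufa2 and Sdhaf2 passed in all 16 fits that left out 1 tumor, whereas Cox7a1 and Cox5a passed in 7 each. Without 29048, the Shh tumor with the highest summed neuronal and oligodendrocyte markers, 11 genes were lower, and without R26P115 8 were. With the naming scheme of the mice (11 numbered and 5 with R26P names) as a covariate 8 genes were lower, and among numbered mice alone 5 were. The 5 Shh tumors against the 6 intracranial Myc tumors gave 5 lower genes, and against the 5 extracranial ones 6. The share of all genes called in each of these refits is not given here, so these counts have no background beside them.

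The level of the chain also varied between tumors of the same subgroup, and the 5 complexes of a tumor mostly deviated in the same direction. The level of a complex was taken as the median over its genes of the log2 deviation from the mean of the 16 tumors. On TMM-scaled log2(CPM + 1), R26P115 (Myc, intracranial) and 43998A (Myc, extracranial) took the 2 highest ranks in all 5 complexes, at 0.77 to 1.08 and 0.55 to 1.17, and R26P115 had the lowest TMM factor of all (0.782). R26P87 (Shh) ranked last or next to last in all 5, at -0.56 to -0.40, and R26P170 (Myc, intracranial) lay between -0.39 and -0.38. Tumor 29048 was the highest of the Shh tumors in every complex (-0.04 to 0.32). On log2(TPM + 1) the same 3 tumors, 29048 (0.33 to 0.70), 43998A (0.33 to 0.95) and R26P115 (0.41 to 0.71), were the highest except in complex I, where 38594A (0.34) passed 43998A (0.33), and R26P170 (-0.53 to -0.52) was the lowest in complexes I, III, IV and V.

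**Figure D3:**
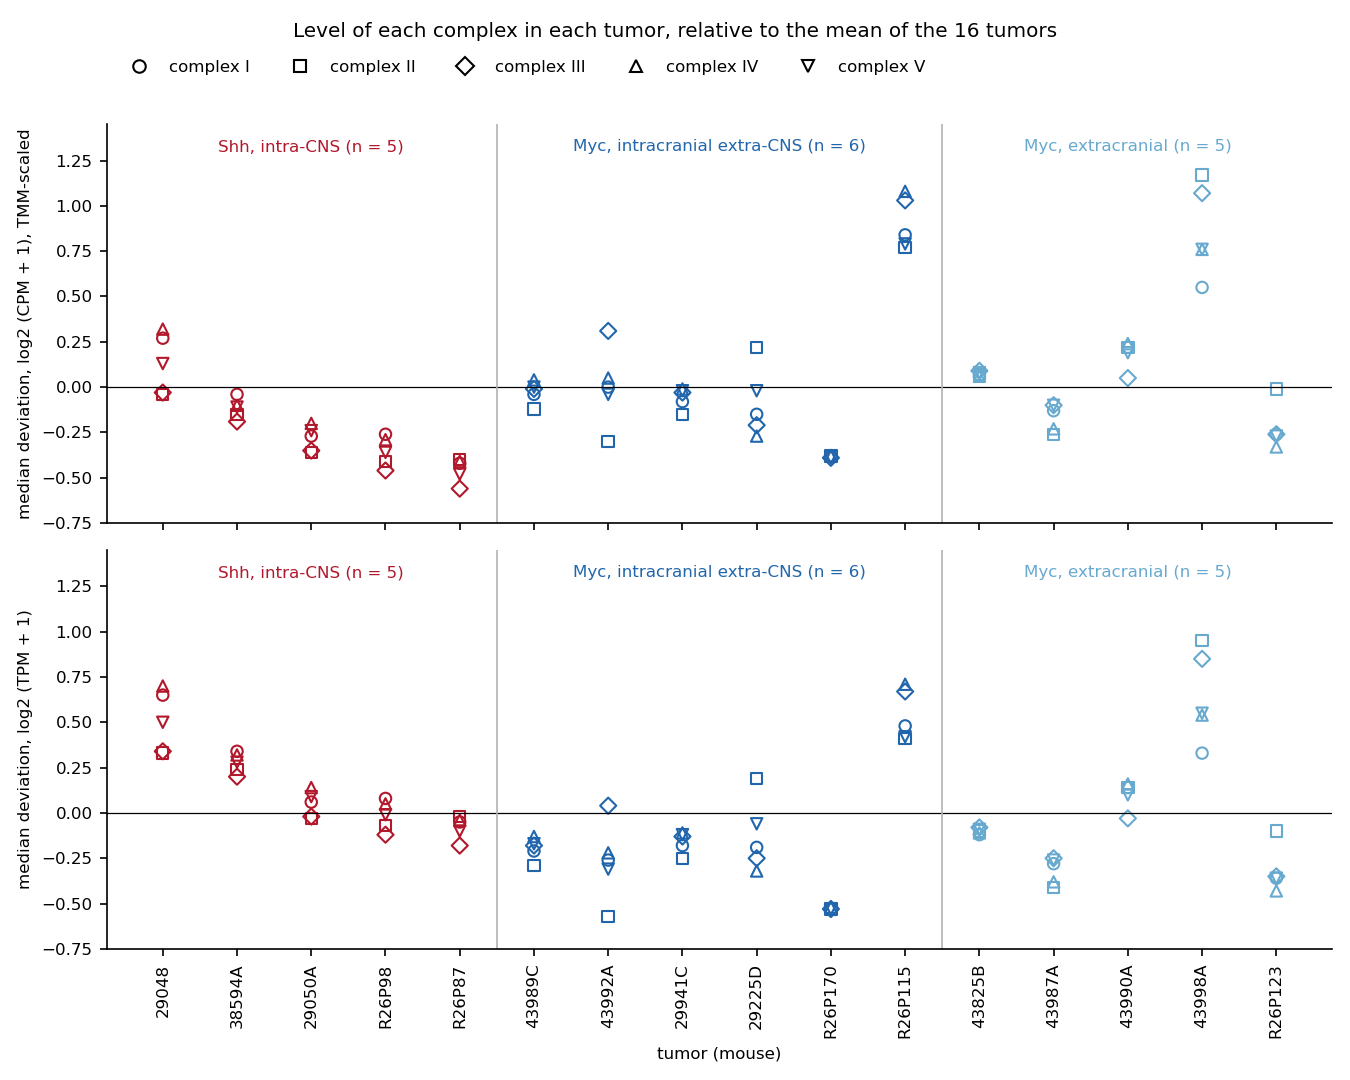
Level of complexes I to V (marker shapes) in each tumor, as the median log2 deviation of their genes from the mean of 16 tumors, on TMM-scaled CPM (top) and on TPM (bottom), with tumors ordered by group. Markers of most tumors lie close together, R26P115 and 43998A stand highest at the top, and the Shh tumors shift up relative to the Myc tumors on TPM.

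Summed over its genes, complex I reached 8831 TPM in 29048, 8119.6 in R26P115 and 7415 in 43998A, and complex V reached 10261, 10118 and 10478 TPM. In R26P170 the sums were 3937 and 5325 TPM. Complex II was highest in 43998A (1574 TPM), where Sdhb had 420.1 TPM against 121 to 259.8 in the other tumors and Uqcrfs1 had 316 TPM. Between subgroups the summed levels overlapped in every complex, for example 5292 to 8831 TPM (Shh, n = 5) and 3937 to 8119.6 TPM (Myc, n = 11) for complex I. The mean level of each complex in Shh minus that in Myc tumors was 0.07 (complex III) to 0.32 (complex I) on TPM and -0.46 (complex III) to -0.20 (complex I) on TMM-scaled CPM.

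Other measures were read in 29048, R26P115 and 43998A, and not all of them set 43998A apart. The 16 genes of the TCA cycle and pyruvate dehydrogenase, which feed the chain with electrons, deviated by 0.98 in 43998A, 0.65 in R26P115 and 0.34 in 29048 on TMM-scaled CPM, and by -0.45 to 0.05 in the other 13 tumors. The 77 detected genes of the cytosolic ribosome, a list added after the data were seen, deviated by -1.25 in 29048 and -1.09 in R26P115 and by 0.31 in 43998A. In the other 13 tumors the ribosome genes deviated by -0.60 to 0.86. Of 6 proliferation genes the deviation was -1.50 in 29048, -2.45 in R26P115 and 0.14 in 43998A, and -1.09 to 1.16 in the other 13. Smarcb1 was 58.1, 43.7 and 22.1 TPM in 29048, R26P115 and 43998A, and 3.99 to 26.1 TPM in the other 13. The part of these measures in the respiratory chain levels was not tested, and in bulk tumors fewer cells of a type and less RNA per cell cannot be told apart.

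The second comparison asked whether Myc tumors inside and outside the skull differed. Of 21261 genes tested by edgeR, 1 (0.0047%) was called, and none of the 83 was. At an unadjusted p under 0.05 edgeR gave none of the 83, the lowest adjusted p being 0.579, and DESeq2 called none and gave none at that unadjusted level. The median log2 fold change (intracranial minus extracranial) was -0.08, and 81 of the 83 lay within 0.5 of 0. The 5 genes with the lowest p were Atp5s (0.44, SE 0.33), Cox7a1 (0.85, SE 0.64), Atp5c1 (-0.34, SE 0.26), Atp5k (-0.39, SE 0.31) and Cox7a2l (-0.29, SE 0.24), with edgeR adjusted p up to 0.64. Summed complex I was 5217 ± 1475 TPM (SD, n = 6) in intracranial and 5631 ± 1221 TPM (n = 5) in extracranial tumors. Tumor 43990A is extracranial by its label and intracranial in the study's list of tumors, and moving it called no gene of the set.

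The widest spread among the 83 genes was that of isoforms known to be restricted to certain tissues. Cox6b2, the testis form of the Cox6b subunit of complex IV (chr7:4751792-4753094, minus strand), had 78.9 (29048), 88.6 (38594A), 275 (29050A), 187 (R26P98) and 72.5 (R26P87) TPM in the Shh tumors. In the 11 Myc tumors it ran from 5.53 (R26P170) to 264 (R26P115) with a median of 56.6, and 29941C (254) and 43990A (225) were also high. In TMM-scaled CPM 4 of the 11 Myc tumors lay within the Shh range, 4 below it and 3 above it (log2 fold change -0.03, SE 0.75, edgeR adjusted p = 0.979). Cox6b2 made up 1.15% to 28.5% of the sum of Cox6b1 and Cox6b2, and its 49.7-fold range compares with 2.56-fold for the ubiquitous Cox6b1. Among tumors induced at E6 alone it was called higher in Shh, where the only Myc tumors are R26P170 (5.53) and 43825B (9.35), both at its lowest levels.

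Cox7a1, the heart and skeletal muscle form of the Cox7a subunit, was called lower in the Shh tumors. It had 12.1 (29048), 4.84 (38594A), 6.93 (29050A), 6.36 (R26P98) and 2.42 (R26P87) TPM in Shh and 2.59 to 33.8 TPM with a median of 10.9 in Myc tumors, so the groups overlapped. The log2 fold change was -1.66 (SE 0.60, edgeR adjusted p = 0.0444) on 8 to 378 counts, and 9 of the 16 fits without 1 tumor lost the call. Beside it, 8 of 14 skeletal muscle markers were called lower in Shh and none higher, where 17.0% of all genes tested were called lower. The muscle markers summed to 7.3 to 80.3 TPM in Shh and 11.3 to 981 in Myc tumors. Of 8 macrophage and leukocyte markers 7 were also called lower in Shh and none higher. R26P115 had the highest Cox7a1 level (33.8 TPM) and 103 TPM of the summed muscle markers, of which Pygm made up 84.5 and Myh7 12.7, both the highest of the 16 tumors. R26P123, with the highest muscle sum (981 TPM), had 12.8 TPM of Cox7a1. The part of muscle cells in the Cox7a1 difference was not tested. The liver-type partner Cox7a2 gave 0.13 (SE 0.30) in the same fit.

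**Figure D4:**
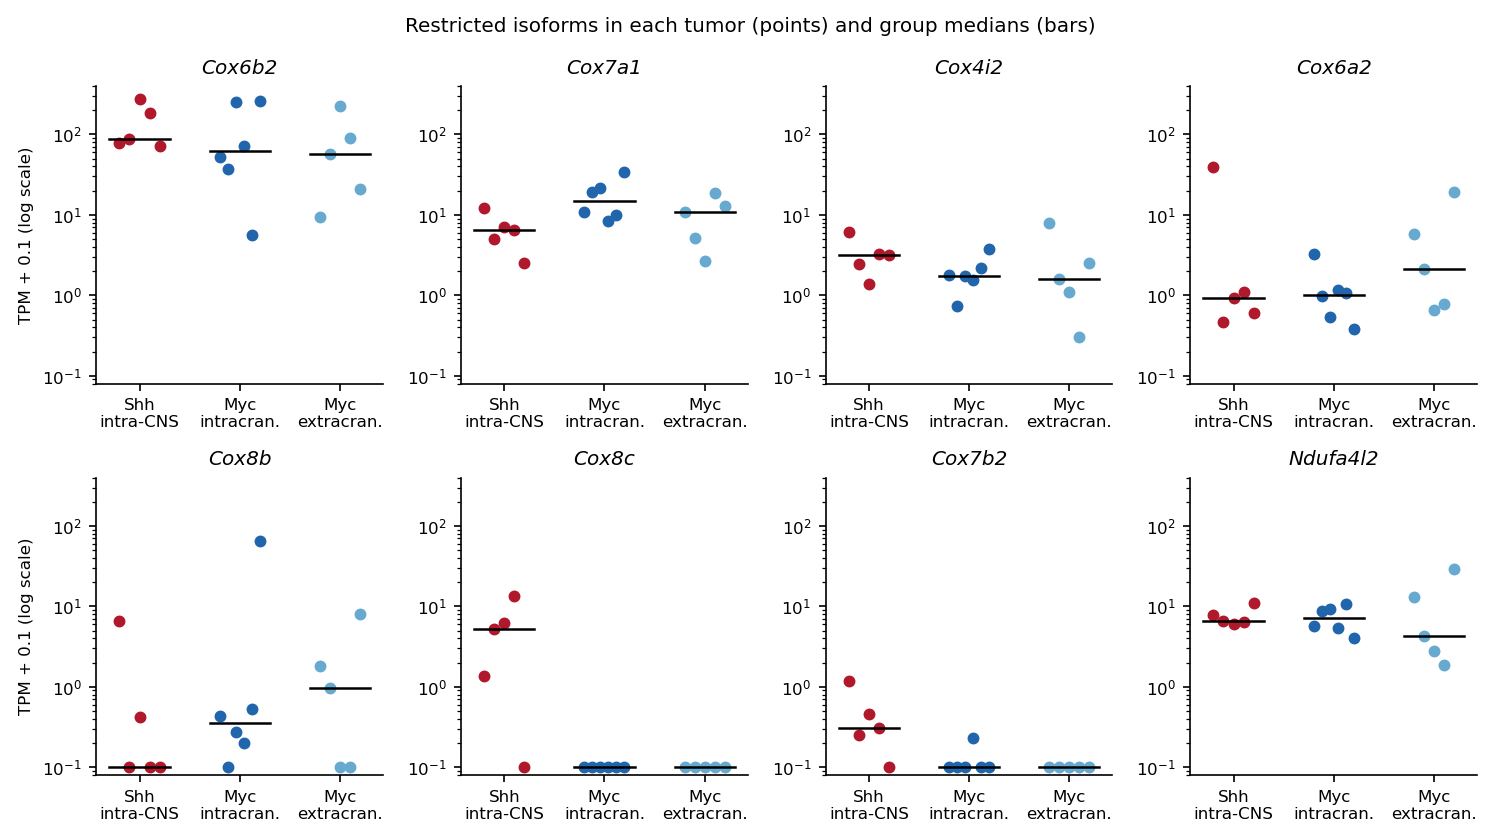
TPM plus 0.1 (log axis) of 8 isoforms with restricted tissue distribution in each tumor, by group, with group medians as bars. Cox6b2 spans 5.53 to 275 TPM with overlapping groups, Cox8b peaks at 64.7 TPM in R26P115, and Cox8c is above 0 in 4 Shh tumors and in none of the 11 Myc tumors.

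Ndufa4l2, a hypoxia-induced paralog of Ndufa4, ranged from 1.76 TPM (43998A) to 29.3 TPM (R26P123), and was 5.87 to 11 TPM in Shh tumors (log2 fold change -0.71, SE 0.56, edgeR adjusted p = 0.329). The tumor with the highest sum over 12 hypoxia-responsive genes, R26P170 (3319.9 TPM against 512 to 1981 in the other 15), had 10.5 TPM. Ndufa4 itself ranged from 204 (29225D) to 1299 TPM (29048), a 6.37-fold range that is wide for a ubiquitous subunit. Ndufa4 was at 886 ± 256 TPM (SD, n = 5) in Shh and 554 ± 339.9 TPM (n = 11) in Myc tumors, and edgeR gave 0.12 (SE 0.40) for the log2 change.

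The isoforms below the count limit differed in how many tumors held them. Cox8c, a testis form of Cox8, had 7, 30, 75 and 58 counts in the Shh tumors 29048, 38594A, 29050A and R26P98, and 0 in R26P87 and in all 11 Myc tumors (edgeR adjusted p = 0.00482). In pooled counts this is 0.927 CPM in Shh, at least 136-fold higher than the 0.0068 CPM that a floor of 3 counts over the Myc group allows, for counting error only. Among tumors induced at E6 alone the call was lost. Cox8b, a muscle and brown fat form, had 258 counts (64.7 TPM) in R26P115 and at most 40 counts in any other tumor. The brown fat marker Cidea was 25.2 TPM in R26P115, but Ucp1 was 1.05 TPM and Elovl3 was 0. Cox6a2, another muscle form that some neurons also express, reached 39.3 TPM in 29048, where the muscle markers summed to 80.3 TPM (62.8 of it Pygm) and the neuronal markers to 4981 TPM. In R26P123 it was 19.0 TPM, where these sums were 981 and 593 TPM. It was at most 5.73 TPM in the other 14. Cox4i2, a form known from lung and hypoxic cells, had counts in all 16 tumors and was highest in 43825B (7.79 TPM), at under 1% of the sum with Cox4i1 in every tumor. Cox7b2 had at most 7 counts in any tumor. The part of non-tumor cells in these isoform levels was not tested.

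The other genes that serve the chain were read against the 21.9% of genes above the count limit called lower and the 18.5% called higher. Of 5 nuclear subunits or partners (Ndufab1, Cyc1, Cycs, Atpif1 and Usmg5) none was called, and Atpif1, the inhibitor of the ATP synthase, gave the only positive value (0.41, SE 0.16). Of 45 assembly factors 4 were lower and none higher. The 4 were the copper chaperone Cox17 (-0.51, SE 0.16), Coa5 (-0.81, SE 0.19), Atpaf2 (-0.46, SE 0.16) and Tmem70 (-0.51, SE 0.18), the last a pair that helps to build complex V. In TPM the mean of Coa5 was 48.2 in Shh and 58.4 in Myc tumors. Means were not lower in Shh for Cox17 (158 and 155 TPM), Atpaf2 (38.4 and 36.6) and Tmem70 (69.3 and 68.6). The median log2 fold change over the 45 was -0.02. Of the 16 TCA cycle and pyruvate dehydrogenase genes Dlst (-1.01, SE 0.22) and Suclg2 (-1.20, SE 0.28), both enzymes around succinyl-CoA, were lower. Of 78 mitochondrial ribosomal protein genes 20 were lower and 2 higher (median -0.32), from Mrps6 (-1.85, SE 0.44) to Mrps5 (0.62, SE 0.16). In the site comparison none of these genes was called.

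Among 18 regulators, 3 were lower in Shh tumors and none higher, beside the same 21.9% and 18.5%. Myc was lower by -3.32 on the log2 scale (SE 0.55, edgeR adjusted p = 0.000279), with 18.6 ± 9.31 TPM in Shh (SD, n = 5) and 129 ± 61.7 TPM in Myc tumors (n = 11), where all but R26P115 (8.73) had 87.0 to 225. Pprc1, a coactivator of the PGC-1 family that is induced with growth, fell by 0.77 (SE 0.23), and Max, the partner of MYC, fell by 0.49 (SE 0.16). In TPM the mean of Pprc1 was 35.7 in Shh and 42.7 in Myc tumors. That of Max was not lower in Shh, at 92.6 and 89.8 TPM. Nrf1 (0.11, SE 0.20), Gabpa (-0.26, SE 0.19), Yy1 (-0.36, SE 0.17), Esrra (-0.75, SE 0.35) and Tfam (0.19, SE 0.14), the activator of mitochondrial DNA transcription, did not pass the test. Ppargc1a, which encodes PGC-1alpha, averaged 9.32 ± 10.1 TPM in Shh and 2.02 ± 6.15 TPM in Myc tumors (log2 fold change 1.49, SE 1.50).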

How the data were processed

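Poly(A) RNA of 16 tumors was sequenced after stranded library preparation. Per the labels and the study's methods, the authors aligned and counted reads with STAR 2.5.3a on mm10 and deposited a table of raw counts per gene and a table of TPM (a level per gene length), one column per tumor; the deposited counts and TPM carry gene symbols, and the annotation is not given in the sources used here. The submitters' processing notes also name Trim Galore, FastQC and Picard. Symbols were matched to GENCODE M21 (GRCm38, all 83 genes) for coordinates.

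Counts were tested with edgeR 4.0.16 (quasi-likelihood, TMM, all genes with any count, Benjamini-Hochberg over 21854 genes for subgroup and 21261 for site, adjusted p under 0.05, no fold limit), with DESeq2 1.42.0 and limma 3.58.1 on log2(TPM + 1) as alternatives. SE is the absolute log2 fold change divided by the square root of F. The fits were tested on simulated data. Members and lists were chosen with earlier results of these data known. Named genes were the called genes by complex, isoform sets, core subunits, the most abundant gene of each complex, the lowest site p-values and the extremes of each other list. Of the members, 1 gene of complex I is counted but not reported here by itself, and 1 Shh marker was left out. The cytosolic ribosome list and the promoter motifs were chosen after the data were seen. Python 3.11.15 was used for summaries.

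Each tumor came from a different mouse, so p-values measure spread between mice. Genes with processed pseudogenes may lose reads to them. Counting intervals and floors cover counting error only.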

Additional observations from a re-analysis of the deposited data

Results flagged for a closer look

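In each group of 5 or 6 tumors the highest and lowest values of the named genes and of the summed complexes were checked for a tumor far from the others by Dixon's criterion. Of 132 groups checked, 28 had such a tumor (21.2%), where chance gives about 1 in 20 for normally distributed values, and genes of 1 tumor are not independent. The values were TPM without a log, and some lay near 0, such as Cox7b2 (0.134 TPM in 29225D, others of its group 0). The rate of 1 in 20 may thus not hold here. R26P115 accounted for 11, 29048 for 6, 43998A for 4 and R26P123 for 3.

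Among intracranial Myc tumors, R26P115 was the highest for Atp5c1 (294 TPM, others 181 to 212), Atp5g1 (797), Cox4i1 (1459.6), Cox6a1 (845), Cox7a2 (394), Cox8a (1287), Cox8b (64.7), Ndufa4 (1267) and Ndufs1 (148), and for the summed levels of complex I (8119.6 TPM) and complex IV (9484 TPM). Also in that group Atp5l was highest in 29941C (957 TPM), Cox6a2 in 43989C (3.13) and Cox7b2 in 29225D (0.134), and Ndufa2 was lowest in 29225D (163).

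Among Shh tumors, 29048 was the highest for Atp5b (1951 TPM, others 1065 to 1289), Cox4i1 (1506), Cox6a2 (39.3), Cox8b (6.55), Ndufs1 (164) and Sdha (429). Among extracranial Myc tumors, 43998A was the highest for Sdhb (420.1 TPM), Uqcrc1 (388), Uqcrfs1 (316) and summed complex II (1574), and R26P123 was the highest for Cox6a2 (19.0) and Cox8b (7.83) and the lowest for Atp5s (10.5).

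Tumor 29048 held the highest oligodendrocyte and neuronal marker levels, R26P115 the lowest proliferation and cytosolic ribosome levels of the Myc tumors, and R26P123 the highest skeletal muscle markers (981 TPM). Their part in these values was not tested.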

How the results depend on the processing

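The count of genes called lower in Shh tumors was 10 and fell to 2 with total counts, 1 in limma on TPM, 2 among tumors induced at E6, 5 against intracranial Myc tumors alone, 6 against extracranial ones, 5 among numbered mice and 2 with a fold limit of 1 on the log2 scale. It ran from 4 to 13 when 1 tumor was left out. The share of all genes called is given above for the main fit and for limma on TPM alone. The count called higher was 0 and became 13 on TPM and 1 among tumors induced at E6. The level of each complex turned from higher in Shh on TPM to lower on TMM-scaled CPM, at -0.20, -0.38, -0.46, -0.23 and -0.30 for complexes I to V. The restricted isoforms all belong to complex IV, so leaving them out could change that complex alone. Its level on TPM (Shh minus Myc) went from 0.31 to 0.34. Of genes named, Atp5g2 (0.03) and Ndufa2 (0.02) turned positive on TPM, and Cox6b2 turned to 3.66 among tumors induced at E6. In 72 further cases the sign differed with no call either way. The counts in the site comparison were 0 under all alternatives run. No paired analysis was possible because no mouse carried tumors of more than 1 group. Depth did not limit most genes, whose lowest count in any tumor had a median of 1153, but Cox7a1 had as few as 8.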
